A study of Mus musculus with 6 samples.

Results

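The genes described here encode 9 proteins that hold back mTORC1 or report nutrients to it: the sestrins Sesn1, Sesn2 and Sesn3, Ddit4 (REDD1), Deptor, the GATOR1 subunits Nprl2, Nprl3 and Depdc5, and the lysosomal arginine sensor Slc38a9. They were chosen by name for their known roles, from 22180 genes measured on the arrays by a probe set that carries 1 gene symbol. Earlier results of these data were known when they were chosen. All 9 lay above the limit used for dim genes and were among the 14787 genes tested. The cells were CD4+ T cells of OT II transgenic mice aged 12 to 16 weeks, whose T cell receptor transgene recognises an ovalbumin peptide. They came from spleen and lymph nodes, excluding the mesenteric nodes, of 6 mice in all. Every culture held antigen-presenting cells and the peptide for 72 hours, and CD4+ cells were purified again before RNA was taken. The control group (3 arrays) was grown in RPMI-1640 with dialyzed serum, and the low arginine group (3 arrays) in the same medium with 1% of the normal arginine, or 12 uM. The labels call the arrays of a group biological replicates, without saying which mouse or mice gave each.

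mTORC1 is a kinase complex that drives protein synthesis and growth when nutrients and growth factors are at hand, and in T cells it rises after activation. Amino acids act through the Rag GTPases, which bring mTORC1 to the lysosome, where the small GTPase Rheb switches it on. GATOR1 shuts the Rag GTPases off, and GATOR2 opposes GATOR1. Sestrins, with Sesn2 as a leucine sensor, and Castor1, the cytosolic arginine sensor, bind GATOR2 when their amino acid is missing. Slc38a9 reports arginine inside the lysosome, REDD1 acts on the TSC complex that turns Rheb off, and Deptor binds mTOR itself. As background, Sesn2 and Ddit4 are both known as targets of Atf4 under amino acid shortage. Sesn1 and Sesn2 also answer to p53, Sesn3 to FOXO factors, and Ddit4 to hypoxia.

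Sesn2 rose and Ddit4 fell in low arginine, each by about 3-fold, and the GATOR1 subunit Nprl3 rose by a smaller amount. The other 6 genes did not pass the test. Of the 9 genes, 2 rose and 1 fell at an adjusted p below 0.05 (limma, Benjamini-Hochberg over all genes tested), against 12.2% of all genes tested in either direction, 5.19% higher and 6.98% lower. Groups did not overlap for 4 of the 9 genes, Sesn2, Sesn3, Ddit4 and Nprl3, against 32.2% of all genes tested. Every value below is the probe set value on the log2 scale, and every change is low arginine minus control on that scale. Levels of different genes are not compared, since probe sets differ in brightness.

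**Figure D1:**
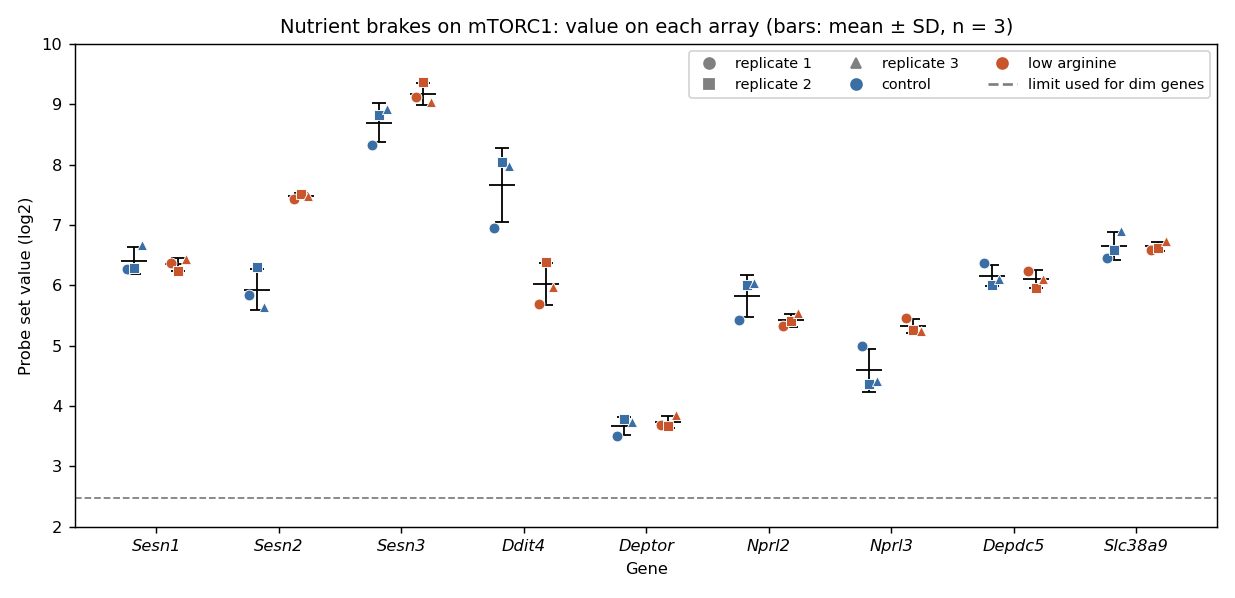
Probe set values (log2, vertical axis) of the 9 genes on each of the 6 arrays, with control in blue and low arginine in orange, replicate numbers by marker shape, and black bars for mean ± SD (n = 3). The low arginine arrays of Sesn2 lie within 7.44 to 7.52, above all controls, those of Ddit4 lie at 6.38 and below, under all controls, and all 9 genes lie above the dashed limit for dim genes.

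Over all genes tested, 1799 passed the test, 767 higher and 1032 lower, a split of 535 and 1190 after centring on the 75th percentile of every array. Control replicate 1 stood apart from the other controls on the second principal component, which took 22.5% of the variance (score 35.2 against -8.53 and -22.3). The labelled cell type was checked on 9 CD4+ T cell markers, of which 7 were matched. Their mean log2 value was 9.18 to 9.39 in control arrays and 9.07 to 9.32 in low arginine arrays, and none passed the test. The mean of B cell markers (4 of 5 matched, 2.57 to 2.81 over all arrays) and that of myeloid markers (8 of 8, 2.69 to 2.90) lay near the limit for dim genes, 2.48. Of the myeloid list Cd68, named after its values were seen, lay well above it, at 5.28 in controls and 5.49 in low arginine (change 0.21, limma adjusted p = 0.703). In each of these lists no member passed, and Ms4a1, Lyz2, Cd14 and Adgre1 lay under that limit. Markers of CD8+ T and NK cells had a mean of 3.44 to 4.01 in controls and 3.38 to 3.47 in low arginine, with no member of 3 tested past the threshold. Their brightest member, Cd8b1, lay well above the limit for dim genes, at 6.90 in controls and 6.24 in low arginine, without overlap. It changed by -0.66 (limma adjusted p = 0.0632), and Ncr1 and Klrb1c lay under the limit. Of the 3 plasma cell markers tested, Prdm1 and Xbp1 fell, which activated T cells also express, against 6.98% of all genes tested. Sdc1 did not pass, at 2.94 in controls and 2.97 in low arginine (change 0.029, limma adjusted p = 0.803), and Jchain lay under the limit. The list mean was 5.08 to 5.20 in controls and 4.50 to 4.64 in low arginine. The 6 matched markers of cycling cells all fell, with a list mean of 8.57 to 8.58 in controls against 7.30, 6.08 and 5.67 in low arginine replicates 1, 2 and 3. The means of the plasma cell and cycling lists moved with the groups, while those of the other lists overlapped between groups. The part of any of these lists in the changes of the 9 genes was not tested. In bulk RNA of purified cells, fewer cells of a type and less RNA per cell cannot be told apart.

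Among the sestrins, Sesn2 passed the test, and Sesn1 and Sesn3 did not. Sesn2 read 5.85, 6.31 and 5.64 in control replicates 1, 2 and 3, and 7.44, 7.52 and 7.49 in low arginine replicates 1, 2 and 3. The low arginine arrays were close together and all above the highest control, while the controls were more spread out. The mean went from 5.93 ± 0.34 to 7.48 ± 0.04 (SD, n = 3), a change of 1.55 ± 0.17 (SE), or 2.93-fold (95% interval 2.22 to 3.87; limma adjusted p = 0.00318). Sesn2 passed in all 15 alternatives tried, with adjusted p from 2.75e-04 to 0.0249 and changes from 1.25 to 1.74.

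Sesn3 read 8.32, 8.83 and 8.93 in the controls and 9.12, 9.38 and 9.03 in low arginine. The groups did not overlap, but the gap between control replicate 3 and low arginine replicate 3 was small, and control replicate 1 was the lowest array. The change was 0.48 ± 0.18 (SE; 95% interval 0.06 to 0.90), which did not pass (limma adjusted p = 0.131). It passed with array weights only, with a change of 0.38 (limma adjusted p = 0.028). With those weights 5514 of the 14787 genes tested passed, against 1799 without them.

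Sesn1 read 6.27, 6.29 and 6.68 in the controls and 6.37, 6.23 and 6.44 in low arginine, so that the groups overlapped, with control replicate 3 highest and low arginine replicate 2 lowest. The change was -0.065 (95% interval -0.39 to 0.26; limma adjusted p = 0.83). The interval spans 0.761 to 1.20 times the control level, so the data do not show that Sesn1 stayed the same.

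**Figure D2:**
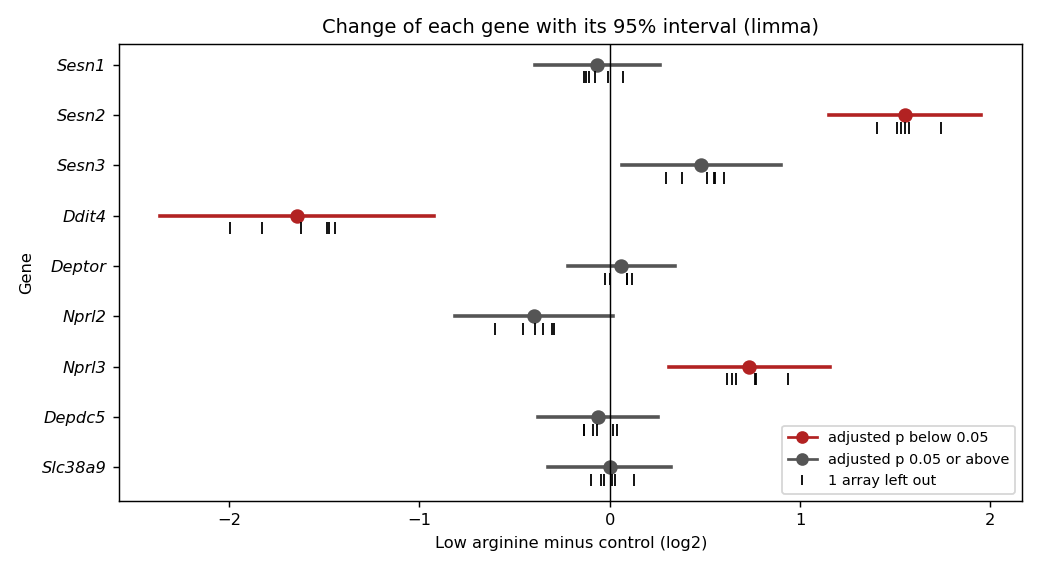
Change of each of the 9 genes (low arginine minus control, log2, horizontal axis) with its 95% interval from limma, in red where the adjusted p was below 0.05, and ticks for the fits with 1 array left out. Sesn2 and Nprl3 lie to the right of 0 and Ddit4 to the left with every array left out, whereas the ticks of Sesn1, Deptor, Depdc5 and Slc38a9 fall on both sides of 0.

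Whether the sestrins changed by different amounts was asked within arrays, by the difference between a pair of genes on the same array. The change of Sesn2 exceeded that of Sesn1 by 1.62 and that of Sesn3 by 1.07, and the change of Sesn1 lay 0.55 below that of Sesn3. In each of these pairs the 3 low arginine arrays lay outside the range of the 3 controls. The exact permutation test over arrays (two-sided) gave p = 0.10 for each, which is the smallest it can give with 3 arrays against 3 (20 arrangements), and p = 0.10 after adjustment over the 4 pairs compared. The design cannot reach 0.05 by this test.

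Ddit4, whose protein REDD1 restrains mTORC1 through the TSC complex, moved against Sesn2. Ddit4 read 6.95, 8.05 and 7.97 in control replicates 1, 2 and 3, and 5.69, 6.38 and 5.98 in low arginine replicates 1, 2 and 3. Control replicate 1 was about 1 log2 unit below the other controls but still above every low arginine array. The mean went from 7.66 ± 0.62 to 6.02 ± 0.35 (SD, n = 3), a change of -1.64 ± 0.31 (SE), or 3.12-fold lower (limma adjusted p = 0.0161). The 95% interval ran from -2.36 to -0.92. Within arrays, Sesn2 minus Ddit4 was -1.10, -1.74 and -2.34 in the controls and 1.75, 1.14 and 1.51 in low arginine. The changes of these genes differed by 3.19 (exact permutation test, two-sided, p = 0.10, the smallest possible here).

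The call on Ddit4 ended without control replicate 2 (-1.44, limma adjusted p = 0.073), low arginine replicate 1 (-1.48, 0.0572) or low arginine replicate 3 (-1.62, 0.0695). Without control replicate 1, which lay apart, the change was -1.997 (limma adjusted p = 6.49e-04).

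**Figure D3:**
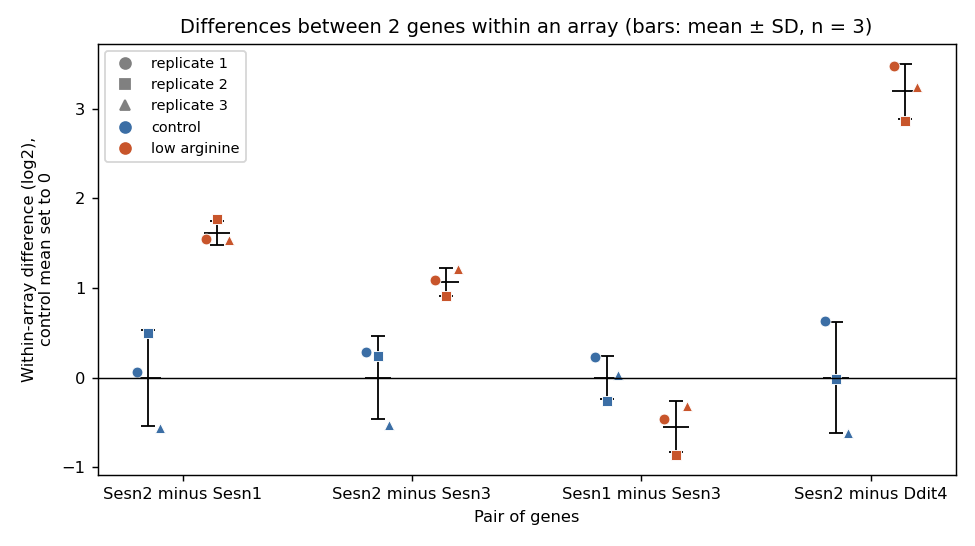
Differences between 2 genes on the same array (log2, vertical axis, with the control mean set to 0) for the 4 pairs compared, with control in blue, low arginine in orange, replicate numbers by marker shape and bars for mean ± SD (n = 3). Groups do not overlap in any pair, and Sesn2 minus Ddit4 shifts most, by 3.19.

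Because Sesn2 and Ddit4 share Atf4 as a known regulator and moved in opposite directions, the stretches of 250 bases before their start sites are shown, from RefSeq on GRCm38.p6, 5′ to 3′ on the gene's strand. Sesn2 lies at chr4:132510457-132510706 (minus strand) and Ddit4 at chr10:59951771-59952020 (minus strand). Capitals mark a match to ACGTG, a form of the core of the hypoxia response element.
Sesn2: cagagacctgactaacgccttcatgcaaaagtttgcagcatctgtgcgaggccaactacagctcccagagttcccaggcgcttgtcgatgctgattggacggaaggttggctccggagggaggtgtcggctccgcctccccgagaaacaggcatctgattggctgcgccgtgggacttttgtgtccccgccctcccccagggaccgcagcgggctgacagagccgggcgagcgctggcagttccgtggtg
Ddit4: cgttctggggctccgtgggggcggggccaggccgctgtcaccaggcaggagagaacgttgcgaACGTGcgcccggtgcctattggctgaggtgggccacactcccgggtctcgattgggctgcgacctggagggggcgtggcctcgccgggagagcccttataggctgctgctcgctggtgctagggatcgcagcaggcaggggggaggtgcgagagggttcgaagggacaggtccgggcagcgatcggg
The Ddit4 stretch holds ACGTG at 187 to 183 bases before the start site, and the stretches of Sesn2 and the other members hold none. This form, on either strand, occurs in 16.6% of 32851 such stretches of all genes, so that a match is common. The form GCGTG was not searched or marked, and its letters can be read in the Ddit4 stretch and in stretches of other members. The C/EBP-ATF response element TGATGNAA (3.45% of stretches), the CRE-like TGACGTCA (1.55%) and the FOXO motif TGTTTAC (3.17%) were found in neither, nor in the stretches of the other members. No match overlapped another motif searched. Stretches were matched by symbol for 8 of the 9 genes, not for Deptor, and Sesn1 had 2. The p53 half-site (7.13% of stretches) was found once, in full, in the second stretch of Sesn1 and once in that of Nprl2. These matches describe letters only. Exact matches within the 250 bases alone were searched, so sites with other letters or outside these stretches were not examined.

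Deptor, an inhibitor that binds mTOR directly, showed no change beyond its spread. Its brighter probe set read 3.51, 3.78 and 3.74 in the controls and 3.68, 3.68 and 3.85 in low arginine, with overlapping groups. The change was 0.061 (95% interval -0.22 to 0.34; limma adjusted p = 0.808). The other probe set, under the limit for dim genes at 2.28 and 2.16, changed by -0.12 (limma adjusted p = 0.596).

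Of the subunits of GATOR1, which act as 1 complex, 1 passed the test. Nprl3 rose, while Nprl2, with a negative change, and Depdc5, the subunit that joins the complex to the Rag GTPases, did not pass the test. Nprl3 read 5.00, 4.37 and 4.41 in the controls and 5.47, 5.26 and 5.25 in low arginine. Every low arginine array was above every control, with control replicate 1 nearest to them. Its mean went from 4.59 ± 0.35 to 5.33 ± 0.12 (SD, n = 3), a change of 0.73 ± 0.18 (SE), or 1.66-fold (limma adjusted p = 0.0398).

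Nprl2 read 5.42, 6.01 and 6.03 in the controls and 5.32, 5.41 and 5.54 in low arginine. Control replicate 1 fell among the low arginine arrays, and the other controls were above all of them. The change was -0.40 ± 0.18 (SE; 95% interval -0.82 to 0.02; limma adjusted p = 0.20). Depdc5 read 6.36, 6.01 and 6.11 in the controls and 6.25, 5.95 and 6.11 in low arginine. The groups overlapped, with a change of -0.061 (95% interval -0.38 to 0.25; limma adjusted p = 0.832). Nprl3 minus Nprl2 within arrays was -0.42, -1.65 and -1.62 in the controls and 0.14, -0.15 and -0.29 in low arginine, a shift of 1.13. This pair was chosen after its values were seen and was not tested.

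Calls in GATOR1 varied between the fits. The call on Nprl3 ended without any 1 array other than control replicate 1 (limma adjusted p = 0.0982 to 0.143). It also ended after quantile normalization (0.0528) and with arrays centred on the 75th percentile (0.0519). Its change was 0.62 to 0.77 in these fits. In those with 1 array left out, fewer of all genes tested passed as well, 500 to 1367 against 1799 with all arrays. Without control replicate 1 Nprl3 rose by 0.94 (limma adjusted p = 0.00182), and Nprl2 passed, with a change of -0.60 (limma adjusted p = 0.00875). Array weights gave Nprl2 a change of -0.57 (0.00311). Of all genes tested, 3325 passed without control replicate 1 and 5514 with array weights.

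Slc38a9, the arginine sensor of the lysosomal membrane, read 6.45, 6.59 and 6.90 in the controls and 6.59, 6.62 and 6.73 in low arginine. The low arginine arrays lay inside the range of the controls. The change was -0.0009 (95% interval -0.32 to 0.32; limma adjusted p = 0.999), which leaves room for a change of up to 1.25-fold in either direction.

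The cytosolic arginine sensor and its relative, which are not among the 9 genes, both fell. Castor1, whose protein lets GATOR2 go when arginine binds it, read 6.65, 7.05 and 6.89 in the controls and 5.53, 5.60 and 5.65 in low arginine. The low arginine arrays were all more than 1 log2 unit below the lowest control. The change was -1.27 ± 0.13 (SE), or 2.41-fold lower (limma adjusted p = 0.00222), and it passed in all 15 alternatives (adjusted p up to 0.0203). Castor2, a close relative, read 5.46, 5.91 and 5.84 in the controls and 4.54, 4.61 and 5.23 in low arginine. It fell by 0.94 (limma adjusted p = 0.0286), with low arginine replicate 3 nearest to the controls. The call on Castor2 held only without control replicate 1 or without low arginine replicate 3 among the fits with 1 array left out (limma adjusted p = 0.0731 to 0.115 in the other 4).

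In the rest of the pathway, given by 12 lists with 63 genes tested, 6 genes rose and 5 fell, or 17.5% of those tested against 12.2% of all genes tested. The median change over these genes was 0.14, against 0.0095 over all genes tested. Besides both Castor genes, the amino acid sensors held 1 further call among 5 members. Lars, the leucyl-tRNA synthetase that also reports leucine to Rag GTPases, rose by 0.88 (limma adjusted p = 0.00484). Samtor, the S-adenosylmethionine sensor, changed by -0.22 (limma adjusted p = 0.438) and Sar1b by -0.32 (0.318).

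Calls among the regulators next to GATOR1 went in both directions. Of all genes tested, 12.2% passed (5.19% higher and 6.98% lower), and in lists of 2 to 5 tested genes 1 or 2 calls say little about a list. Of 5 GATOR2 subunits, Mios rose by 0.46 (limma adjusted p = 0.0289) and Wdr24 fell by 0.47 (0.0476). Of KICSTOR, which holds GATOR1 at the lysosome, Itfg2 rose by 0.56 (limma adjusted p = 0.0146) and Kptn, the other member tested, changed by 0.26 (0.44). Rragd was the member of the 4 Rag GTPases that rose, by 0.75 (limma adjusted p = 0.0396). In the Ragulator, the lysosomal anchor of the Rag GTPases, Lamtor2 fell by 0.80 (limma adjusted p = 0.0121) and the other 4 members did not pass.

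These calls did not hold in every fit with 1 array left out. Without control replicate 2, for one, Mios, Wdr24, Itfg2, Rragd and Lamtor2 did not pass (limma adjusted p = 0.055 to 0.144). Of all genes tested, 500 passed in that fit, against 1799 with all arrays. Leaving out the other arrays 1 at a time, Mios and Rragd passed only without control replicate 1, Itfg2 without control replicate 1 or 3, Lamtor2 without low arginine replicate 1 or control replicate 1 or 3, and Wdr24 in no such fit. With arrays centred on the 75th percentile Mios (0.0557) and Rragd (0.0504) did not pass, and with a trended and robust prior Mios (0.0523) and Wdr24 (0.0679) did not.

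**Figure D4:**
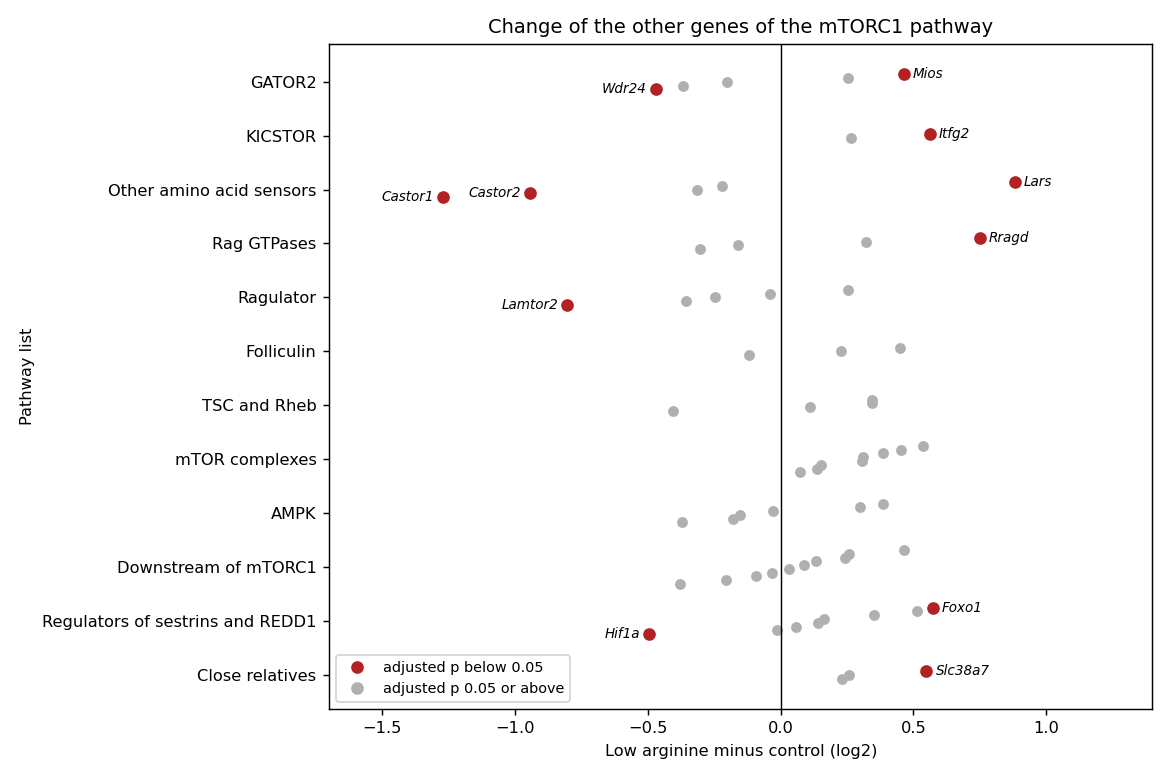
Change (low arginine minus control, log2, horizontal axis) of the 63 tested genes in 12 lists of the mTORC1 pathway, 1 dot per gene, in red with its name where the limma adjusted p was below 0.05. Castor1 lies farthest to the left, at -1.27, and Lars farthest to the right, at 0.88, and all 8 genes of the mTOR complexes lie to the right of 0 without passing, Akt1s1 turning negative after quantile normalization and Rictor without control replicate 1.

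The kinase complexes themselves held 0 calls among 8 genes. All 8 changes were positive (median 0.31), apart from Akt1s1 after quantile normalization and Rictor without control replicate 1. Over the 14787 genes tested, 7624 changes were positive. Of the 8 genes, 4 lay at an unadjusted p below 0.05 (limma), all as rises. That limit was passed by 27.3% of all genes tested in either direction, and by 1971 of 14787 as rises. With array weights 5 of the 8 passed, as did 5514 of the 14787 genes tested. Without control replicate 1, 3 of the 8 passed, as did 3325 of all genes tested. Mtor changed by 0.30 (limma adjusted p = 0.132) and Rptor, the subunit that defines mTORC1, by 0.45 (0.0739). Rptor passed without control replicate 1 (0.58, adjusted p = 0.00835) and with array weights (0.60, 0.00118), and Mtor with array weights (0.34, 0.0175). Of the TSC complex and Rheb, none of 4 passed, with Tsc2 at 0.11 (limma adjusted p = 0.698) and Rheb at 0.34 (0.081). Of these 4, 2 lay at an unadjusted p below 0.05 as rises (27.3% of all genes tested in either direction, 1971 of 14787 as rises). Rheb passed with array weights (0.28, 0.0284). The lists of folliculin and its partners (3 tested), AMPK (6) and genes downstream of mTORC1 (10) held no call either. They had 1, 2 and 2 genes at an unadjusted p below 0.05, all as rises, again against 27.3% of all genes tested in either direction.

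Of 8 regulators of sestrins and REDD1 that were tested, 1 rose and 1 fell, against 5.19% and 6.98% of all genes tested. With 8 genes, this count says little about the regulators as a list. Foxo1, a factor of resting T cells, read 7.80, 7.89 and 7.85 in the controls and 8.40, 8.37 and 8.48 in low arginine. It rose by 0.57 (limma adjusted p = 0.0129), without overlap. Hif1a, the oxygen-regulated subunit of HIF-1, read 9.79, 9.66 and 9.48 in the controls and 9.15, 9.22 and 9.08 in low arginine. It fell by 0.50 (limma adjusted p = 0.035), also without overlap. Atf4 changed by 0.14 (limma adjusted p = 0.583), with overlapping groups, and Trp53 was not analysed here.

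The call on Foxo1 ended with the mean of its 2 probe sets (0.38, limma adjusted p = 0.121) and when control replicate 2, or either of the low arginine replicates 2 and 3, was left out (0.053 to 0.0638). That on Hif1a ended without control replicate 2 or any 1 low arginine array (0.0995 to 0.133). Among close relatives of Slc38a9, the lysosomal carrier Slc38a7 rose by 0.55 (limma adjusted p = 0.0322), and Slc38a1 and Slc38a2 changed by 0.26 (0.194) and 0.23 (0.268). The call on Slc38a7 ended without any 1 array other than control replicate 1 (0.0788 to 0.12) and with arrays centred on the 75th percentile (0.0541).

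The genes whose values followed these members most closely over the 6 arrays were named by Pearson correlation among 13434 tested genes with a gene name. They are a description with 6 points that share the same split into groups. For Ddit4 these were Prxl2c (r = 1.00 when rounded, change -1.52), Rab26 (0.997, -1.08) and Igf2r, a receptor of lysosomal sorting (0.997, -0.97), and all 3 fell (limma adjusted p = 0.0138 to 0.0167). For Sesn2 they were Zfp113 (r = 0.993, change 0.26), Pcgf6 (0.993, 0.30) and the elongation factor gene Tcea1 (0.992, 0.54), of which Tcea1 rose (limma adjusted p = 0.0154). For Sesn3 they were Grk6 (r = 0.995), Rplp1 (0.991) and Eps15 (0.991), and for Sesn1 S100a9 (0.987), Prelid3a (0.984) and Abca7 (0.98), and none of these 6 passed the test.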

How the data were processed

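The values deposited for the 6 whole-transcript arrays were log2 expression per probe set. Their distributions were nearly the same on every array (array medians 2.97 to 3.03, sorted values at most 0.199 apart). Per the submitters' processing notes the oligo package was used. Not given in the sources used here are its version, the normalization, the log base and the summarization, and base 2 was assumed from the range (0.956 to 12.41). No detection calls were used, and the number of arrays limits the precision. Of 41345 probe sets, the 23521 with 1 gene symbol were kept, the brightest by mean over the arrays stood for its gene, and the dimmest 7393 of 22180 genes (limit 2.48) were left out.

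Low arginine was set against control in R 4.3.3 by limma 3.58.1 (eBayes after lmFit, two-sided, no block), with Benjamini-Hochberg adjustment over 14787 genes and a threshold of 0.05. The script was tested on simulated data. Same-numbered arrays were not taken as pairs, since the labels do not say that they share mice. The limma p-values weigh the group difference against the spread between these arrays, with variances moderated over all genes tested. The mice behind each array are not known, so these p-values may not reflect variation between mice. Of 69 members of 12 pathway lists 65 were matched by symbol (Samtor as Bmt2), and the other members, among them Trp53, were not analysed here, nor were the unmatched markers and those of red cells. Named were all 9 members, at most 4 called genes per direction of a list, 9 genes whatever their result, and the 3 genes most like 4 of the members, leaving out genes named by a model or clone number. Members, lists, motifs and rules were chosen with earlier results of these data known. Figures were drawn with matplotlib 3.10.9.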

Additional observations from a re-analysis of the deposited data

How the results depend on the processing

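Alternatives were quantile normalization, centring on the median or the 75th percentile, no filter or 0.5 of genes left out as dim, the mean of probe sets, a trended and robust prior, array weights, a replicate block, and leaving out each array. Sesn2, Castor1 and Lars kept their calls in all 15. With array weights, which gave control replicate 2 a weight of 5.19 and control replicate 1 one of 0.239, 5514 genes, 5 of the 9 members and 30 pathway genes passed, and the median over the pathway lists was 0.052. That median was 0.077 with centring on the 75th percentile, where the median over all genes tested moved as well, from 0.0095 to -0.050. With 1 array left out, the counts were 500 to 3325 genes, 1 to 4 members and 2 to 17 pathway genes, and the median was 0.076 to 0.15. Small changes turned sign. Sesn1 was 0.013 with array weights and -0.14 to 0.068 with 1 array left out, Depdc5 0.048 and -0.14 to 0.039, and Slc38a9 0.032 and -0.10 to 0.13. Deptor was -0.012 after quantile normalization, -0.032 as the mean of its probe sets, -0.037 with array weights, -0.12 by its other probe set and -0.023 to 0.12 with 1 array left out. None of these passed the test in any fit. With the replicate number as a block, 6 pathway genes passed in place of 11, beside 3 members and 1568 genes in all. The calls that ended there were those of Mios, Wdr24, Rragd, Hif1a and Slc38a7 (limma adjusted p = 0.0505 to 0.0646). Deviations of same-numbered arrays correlated at 0.059 to 0.14, not all above the limit of 0.1 set for pairs. Each of the 6 arrays nevertheless correlated best with its own number. These weak correlations cannot settle whether same-numbered arrays share mice, and the labels do not say, so the numbers were not taken as pairs. With no detection calls, signal over background was not measured, which limits Deptor's dimmer probe set most.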
